A study of Mus musculus with 32 samples.

Results

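The RNA of 10 mouse genes that make, store, bind and break down retinoids was followed through 32 RNA-seq libraries of chemical reprogramming. The genes are Cyp26a1, Cyp26b1, Lrat, Rdh10, Dhrs3, Aldh1a1, Aldh1a2, Aldh1a3, Crabp1 and Crabp2. They were taken by their GENCODE M21 symbols from the 55401 genes that each expression table lists, and all 10 were found in every table. In chemical reprogramming, small molecules carry fibroblasts towards induced pluripotent stem cells (iPSC) without reprogramming transgenes. The libraries form 16 groups of 2.

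Every reprogramming group started from OG2X129 mouse embryonic fibroblasts, and all received one medium. It held AM580, an agonist of retinoic acid receptors, at 0.5 µM, beside bFGF, vitamin C and the compounds EPZ004777, Forskolin, Parnate, 616452, CHIR99021 and VPA. Control cultures were therefore under a retinoid receptor agonist as well. Cultures with CD3254 (CD), an agonist of the retinoid X receptors (RXR), were compared with DMSO. Cultures overexpressing Rxra (Rxra OE), which encodes one of these receptors, were compared with a control labelled WT OE (CTR). Cultures with knockdown of Exosc3 (shE3), which encodes a subunit of the RNA exosome, were compared with a control labelled WT shRNA (shCTR). A further table holds CD and DMSO cultures at 0, 4 and 8 h of actinomycin D, which blocks transcription. The last table holds iPSC derived with CD or with DMSO (written DMSP in the titles), embryonic fibroblasts (MEF) and R1 embryonic stem cells. The MEF libraries carry the genotype label WT shRNA and the reprogramming label, although their titles name fibroblasts. The day of sampling, the vectors and whether the libraries of a group come from separate cultures or lines were not stated in the sources at hand. Each p-value therefore sets a difference between groups against the spread among these libraries, moderated over genes. It may not hold for other cultures.

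Retinoic acid is made from vitamin A in steps. Retinol is stored as esters by LRAT, oxidised to retinaldehyde by RDH10, returned to retinol by DHRS3, and the ALDH1A enzymes turn retinaldehyde into retinoic acid. CYP26 enzymes hydroxylate retinoic acid and so clear it, while CRABP1 and CRABP2 bind it in the cell. Retinoic acid acts through retinoic acid receptors paired with RXR on direct repeats of a short half-site in DNA, and Cyp26a1 is a textbook target of these pairs, so that the signal raises its own clearance. In embryonic stem cells retinoic acid is known for driving differentiation, including towards extraembryonic endoderm.

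The promoter of Cyp26a1 is shown because this gene differed in every reprogramming comparison and because its window was the only matched one of a member to hold a receptor repeat. Windows of 250 bases before and 50 after the RefSeq start (GRCm38.p6) were matched for 7 of the 10 genes, 10 windows in all; Rdh10, Aldh1a3 and Crabp2 were not matched. They were searched on both strands for a direct repeat, spaced by 1, 2 or 5 bases, of any pair of 4 half-sites: the sequence AGGTCA and its variants, which are AGTTCA, then GGGTCA, and last GGTTCA. The 250 bases before the Cyp26a1 start, chr19:37697558-37697807 on the plus strand, read as follows, with the half-sites in capitals as they appear on this strand.
Cyp26a1: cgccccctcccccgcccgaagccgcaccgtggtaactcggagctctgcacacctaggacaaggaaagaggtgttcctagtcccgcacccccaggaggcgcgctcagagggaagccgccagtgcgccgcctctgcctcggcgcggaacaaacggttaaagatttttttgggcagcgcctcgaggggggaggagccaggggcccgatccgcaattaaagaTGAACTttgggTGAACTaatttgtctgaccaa
The repeat lies on the minus strand at chr19:37697776-37697792, from 32 to 16 bases before the start, with a spacing of 5. Of all 32851 windows of this length, 32 (0.0974%) held a repeat with that spacing and 193 (0.588%) held any of the 3 kinds. The window of Rarb, which encodes a retinoic acid receptor and belongs to the wider gene list described further on, held one of the same spacing on chromosome 14. Both are given here on the strand of the motif, with the half-sites in capitals.
Cyp26a1 repeat: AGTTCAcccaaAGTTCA
Rarb repeat: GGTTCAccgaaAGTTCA
A match is a description of these letters and not evidence that a receptor bound there.

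Levels in 4 of the 5 tables are TPM, transcript abundances corrected for gene length and scaled to one total per library. The actinomycin D table holds RPM, reads scaled to one total and not corrected for length. limma was run on log2(value + 1) over every gene that reached 1 in 2 or more libraries of its table, with Benjamini-Hochberg adjustment over all those genes, and a gene is said to rise or fall only where its adjusted p was under 0.05. This scale understates the changes of genes near 1 TPM. The share of TPM on mitochondrial genes was 50.9 to 62.0% where CD or Rxra OE was tested and 7.46 to 17.4% in the shE3 and iPSC tables, and the depth of the TPM tables is not given by the values. The median gene was higher by 0.18 on the log2 scale with CD and by 0.62 with Rxra OE, against -0.04 with shE3. Differences in the CD and Rxra OE tables are therefore given relative to the median gene, from libraries rescaled by the median ratio over genes, while levels are as deposited. The targeted genes moved as labelled: Rxra stood at 21.7 and 21.7 TPM in Rxra OE against 8.70 and 9.57 in CTR, and Exosc3 at 5.97 and 4.01 TPM in shE3 against 8.86 and 10.2 in shCTR. Rxra rose by 0.47 ± 0.06 (SE) relative to the median gene (limma adjusted p = 0.000931), and Exosc3 fell by 0.83 ± 0.17 (limma adjusted p = 0.00767).

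With CD, Cyp26a1 rose and most of the other genes fell. Of 9 members tested, 1 rose and 7 fell as deposited, where 43.1% of 13006 genes rose and 19.5% fell. Relative to the median gene 1 rose and 8 fell, where 31.3% rose and 30.5% fell. With Rxra OE all 10 members were tested, and 3 rose and 7 fell as deposited, beside 68.6% and 14% of 13305 genes. Relative to the median gene 2 rose, 7 fell and 1 did not pass, beside 35.3% and 35.2%. With shE3, 0 rose and 2 fell of 10 tested, beside 4.85% and 12.3% of 15700 genes. Against the median gene 3 rose and 2 fell, beside 16.2% and 12.9%. The median difference over the members was -0.57 with CD and -1.19 with Rxra OE relative to the median gene, and -0.10 with shE3 as deposited, where the medians over all genes tested were 0.01, 0.01 and -0.04. The 3 tables share no libraries.

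Levels ranged widely among the members. In DMSO cultures Crabp1 was highest (3227 and 3387 TPM), followed by Cyp26b1 and Dhrs3. Crabp2 (85.3 and 92.3 TPM) and Cyp26a1 (83.8 and 89.3 TPM) overlapped and shared the next place, ahead of Rdh10 and Lrat. Aldh1a2, Aldh1a3 and Aldh1a1 lay below 2 TPM, the first pair overlapping. With CD, Cyp26a1 moved from this shared place to the second, above Cyp26b1, and Lrat went below 1 TPM.

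**Figure D1:**
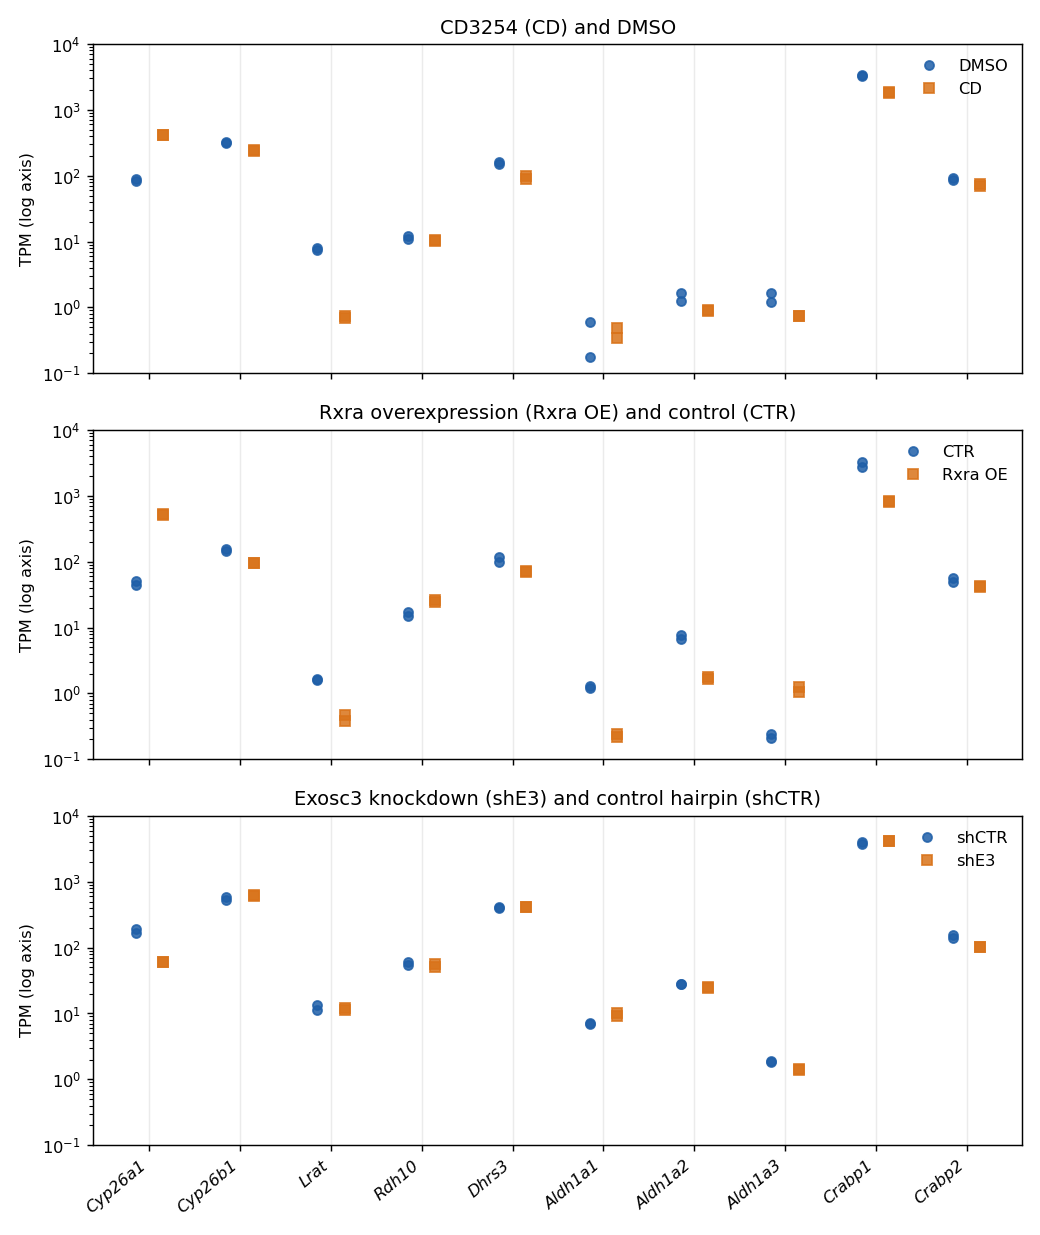
TPM of the 10 genes (log axis) in the CD, Rxra OE and shE3 tables, 1 point per library and 2 libraries per group, controls as blue circles and treated cultures as orange squares. Cyp26a1 lies above its controls with CD and Rxra OE and below them with shE3, and Crabp1 is the highest member in all 6 groups.

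Cyp26a1 (chromosome 19, 37697798 to 37701536, plus strand) encodes a hydroxylase that clears retinoic acid. It stood at 413 and 421 TPM with CD against 83.8 and 89.3 with DMSO, at 530.1 and 512 TPM with Rxra OE against 44.3 and 50.5 in CTR, and at 61.5 and 61.0 TPM with shE3 against 169 and 191 in shCTR. Treated and control libraries did not overlap in any of the 3 tables. Relative to the median gene the difference was 2.06 ± 0.03 (SE) on the log2 scale with CD (limma adjusted p = 2.56e-05) and 2.70 ± 0.05 with Rxra OE (limma adjusted p = 9.22e-06). With shE3 it was -1.54 ± 0.10 as deposited (limma adjusted p = 6.32e-06). As deposited, only 2 members were called with shE3. Of the 10 genes, Cyp26a1 alone was then called in opposite directions by CD and Rxra OE on one side and shE3 on the other. Against the median gene Cyp26b1 and Crabp1 were too, as falls with CD and Rxra OE and rises with shE3. The shE3 call of Cyp26a1 is lost where genes of any level are tested (limma adjusted p = 0.148 over 55401 genes).

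Cyp26b1 (chromosome 6, 84571414 to 84593908, minus strand), the second hydroxylase, did not follow Cyp26a1. It stood at 236 and 245 TPM with CD against 313 and 330.4 with DMSO, and at 95.0 and 95.8 with Rxra OE against 144 and 158 in CTR. Both were falls, of -0.62 ± 0.03 with CD (limma adjusted p = 8.62e-05) and -1.39 ± 0.05 with Rxra OE (limma adjusted p = 1.43e-05) relative to the median gene. With shE3 it stood at 631 and 614 TPM against 533 and 579, a difference of 0.17 ± 0.10 that did not pass (limma adjusted p = 0.266); measured against the median gene it was a rise (0.23 ± 0.03, adjusted p = 0.00668).

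The ratio of Cyp26a1 to Cyp26b1 within a library does not depend on how the libraries are scaled. In the CD, Rxra OE and shE3 tables the control groups lay close together. They stood at 0.268 and 0.270 with DMSO, 0.307 and 0.320 in CTR and 0.317 and 0.331 in shCTR. The ratio was 1.75 and 1.72 with CD and 5.58 and 5.35 with Rxra OE, so that Cyp26a1 exceeded Cyp26b1 in those 4 libraries. With shE3 it was 0.0974 and 0.0992, below every control of these tables. At 0 h of the actinomycin D table the ratio was 0.494 and 0.476 with DMSO and 1.40 and 1.27 with CD. Those are ratios of RPM, not corrected for the 1983 exonic bases of Cyp26a1 and 5352 of Cyp26b1, and are not on the TPM scale. The tables were normalized separately, and no test was made between them.

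**Figure D2:**
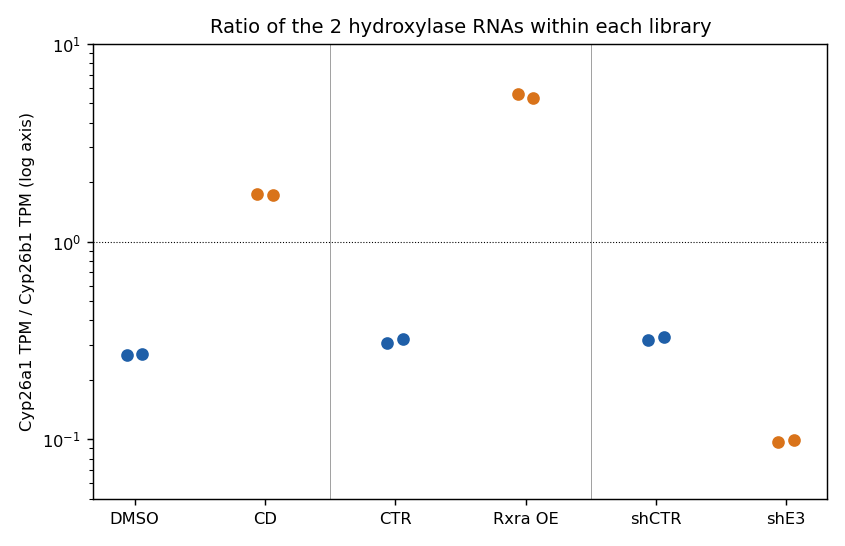
Ratio of Cyp26a1 TPM to Cyp26b1 TPM in each library (log axis), 2 points per group, controls in blue and treated cultures in orange; the dotted line marks equal TPM. CD and Rxra OE libraries lie above 1, the controls between 0.268 and 0.331, and the shE3 libraries below 0.1.

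Cyp26c1, the third gene of the family, lies 4400 bases from Cyp26a1 and is not one of the 10 genes. It was much lower, at 13.7 and 13.8 TPM with CD against 3.5 and 3.42, and at 13.9 and 12.4 TPM with Rxra OE against 1.08 and 1.16. It rose with Cyp26a1 in both, by 1.56 ± 0.07 and 2.18 ± 0.09 relative to the median gene (limma adjusted p = 6.42e-05 and 1.86e-05). In the shE3 table it did not reach the level needed for a test.

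Lrat (chromosome 3, 82892579 to 82903973, minus strand) encodes the enzyme that esterifies retinol for storage. It fell furthest of the members with CD, from 7.45 and 8.01 TPM to 0.730 and 0.684, a difference of -2.48 ± 0.08 relative to the median gene (limma adjusted p = 3.54e-05). With Rxra OE it stood at 0.377 and 0.466 TPM against 1.59 and 1.66 (-1.22 ± 0.09, limma adjusted p = 0.000116). The libraries did not overlap in either table. In shE3 cultures Lrat was at 12.1 and 11.1 TPM against 11.4 and 13.3, overlapping values with no difference past the threshold (-0.08 ± 0.13, limma adjusted p = 0.715). Without either DMSO library or either CTR library Lrat reached 1 TPM in a single library and could not be tested. The same held for Aldh1a2 and Aldh1a3 without a DMSO library, for Aldh1a1 without a CTR library and for Aldh1a3 without an Rxra OE library.

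Dhrs3 and Rdh10 encode enzymes that work in opposite directions between retinol and retinaldehyde. Dhrs3 (chromosome 4, 144892827 to 144928209, plus strand) stood at 88.3 and 97.8 TPM with CD against 152 and 163 with DMSO, and at 73.3 and 70.2 with Rxra OE against 100.2 and 117 in CTR. It fell in both (-0.96 ± 0.05 and -1.32 ± 0.06 relative to the median gene, limma adjusted p = 0.000107 and 2.49e-05). Its shE3 libraries, at 415 and 408 TPM, overlapped the shCTR libraries at 405 and 419 (-0.00 ± 0.09, limma adjusted p = 0.995). Rdh10 (chromosome 1, 16105774 to 16133734, plus strand) stood at 10.1 and 10.4 TPM with CD against 10.9 and 12.1, and at 55.8 and 50.2 with shE3 against 54.0 and 60.8. Its difference with CD was -0.15 ± 0.08 as deposited (limma adjusted p = 0.144) and -0.33 ± 0.06 once the median gene was set to 0 (adjusted p = 0.0054). With Rxra OE Rdh10 was at 25.9 and 24.8 TPM against 15.1 and 16.9, a rise of 0.63 ± 0.09 as deposited (limma adjusted p = 0.000762). Against the median gene this turned to -0.08 ± 0.06 (adjusted p = 0.285), while with mitochondrial genes removed Rdh10 still rose.

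The retinaldehyde dehydrogenases make retinoic acid and were low in the CD table. Aldh1a2 (chromosome 9, 71215789 to 71296243, plus strand) stood at 0.871 and 0.909 TPM with CD against 1.27 and 1.64, at 1.63 and 1.80 with Rxra OE against 6.74 and 7.58, and at 24.8 and 24.0 with shE3 against 27.8 and 28.1. No libraries overlapped. The fall with Rxra OE was -2.14 ± 0.08 relative to the median gene (limma adjusted p = 1.75e-05). The fall with CD, -0.48 ± 0.10 (limma adjusted p = 0.0115), was lost as deposited without CD replicate 1 (-0.36, adjusted p = 0.0926) or replicate 2 (-0.39, adjusted p = 0.0728). The difference with shE3, -0.19 ± 0.11, did not pass (limma adjusted p = 0.249).

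Aldh1a3 (chromosome 7, 66390890 to 66427517, minus strand) went opposite ways with CD and Rxra OE. It stood at 0.735 and 0.748 TPM with CD against 1.20 and 1.66, and at 1.05 and 1.26 TPM with Rxra OE against 0.209 and 0.240. Relative to the median gene it fell by 0.57 ± 0.12 with CD (limma adjusted p = 0.0088) and rose by 0.55 ± 0.10 with Rxra OE (limma adjusted p = 0.00323), and these values are all near the 1 TPM needed for a test. In shE3 cultures Aldh1a3 was at 1.37 and 1.42 TPM against 1.89 and 1.84 and did not pass (limma adjusted p = 0.387). Aldh1a1 (chromosome 19, 20492715 to 20643465, plus strand) was below 1 TPM in all libraries of the CD table and was not tested there. It fell with Rxra OE, from 1.20 and 1.30 TPM to 0.216 and 0.243 (-1.15 ± 0.09 relative to the median gene, limma adjusted p = 0.000129). In shE3 cultures Aldh1a1 was at 9.08 and 10.0 TPM against 7.13 and 7.0, without overlap, and passed when set against the median gene (0.45 ± 0.11, limma adjusted p = 0.0345) but not as deposited (0.39 ± 0.13, adjusted p = 0.0686).

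Crabp1 and Crabp2 encode the cellular retinoic acid binding proteins; CRABP2 is known to hand retinoic acid to its receptors, and CRABP1 to hold it in the cytoplasm. Crabp1 (chromosome 9, 54764748 to 54773110, plus strand) stood at 1811 and 1868 TPM with CD against 3227 and 3387, and at 839 and 795 with Rxra OE against 2755 and 3303. It fell in both (-1.05 ± 0.03 and -2.63 ± 0.08 relative to the median gene, limma adjusted p = 2.81e-05 and 1.06e-05). In shE3 cultures Crabp1 was at 4184 and 4099.9 TPM against 3733 and 3958, a difference of 0.11 ± 0.11 that did not pass (limma adjusted p = 0.555) and that was a rise of 0.18 ± 0.04 against the median gene (adjusted p = 0.0324).

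Crabp2 (chromosome 3, 87948666 to 87953376, plus strand) was lower in all 3 comparisons. It stood at 70.3 and 73.8 TPM with CD against 85.3 and 92.3, at 43.1 and 40.9 with Rxra OE against 49.0 and 56.3, and at 103 and 103 with shE3 against 139 and 157. The falls were -0.49 ± 0.04 with CD and -1.05 ± 0.06 with Rxra OE relative to the median gene (limma adjusted p = 0.000331 and 4.61e-05) and -0.51 ± 0.10 with shE3 as deposited (limma adjusted p = 0.00464). As deposited, the Rxra OE fall (-0.32 ± 0.10, adjusted p = 0.0237) was lost without Rxra OE replicate 1 (-0.36, adjusted p = 0.117) or replicate 2 (-0.28, adjusted p = 0.222). The shE3 fall was lost without shE3 replicate 1 (-0.51, adjusted p = 0.106) or replicate 2 (-0.51, adjusted p = 0.109) and with no filter on low values (adjusted p = 0.282). Within libraries, Crabp1 exceeded Crabp2 by 37.8 and 36.7 times with DMSO and 25.8 and 25.3 times with CD. The ratio was 56.2 and 58.7 in CTR against 19.5 and 19.4 with Rxra OE, and 26.8 and 25.3 in shCTR against 40.6 and 39.8 with shE3.

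**Figure D3:**
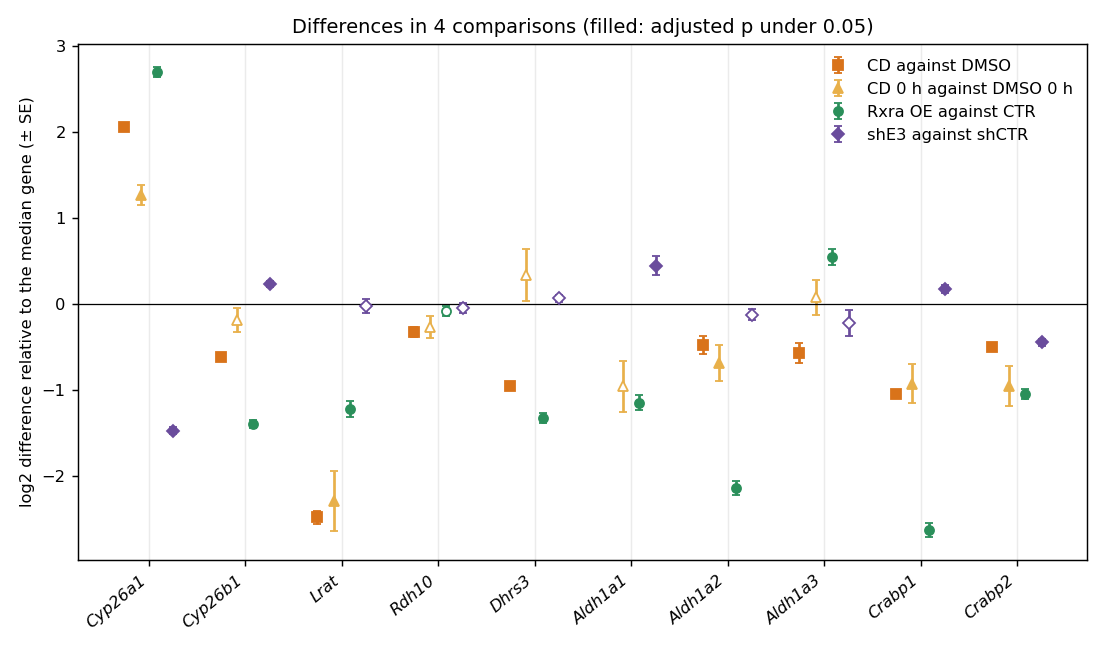
Difference of each gene on the log2(value + 1) scale relative to the median gene (points, with SE bars) in the comparisons of CD with DMSO, Rxra OE with CTR, shE3 with shCTR, and CD with DMSO at 0 h of the actinomycin D table. Filled symbols have a limma adjusted p under 0.05 on this scaling; Cyp26a1 stands at 2.06, 2.70, -1.47 and 1.27, and Aldh1a1 has no point for CD because it was not tested there.

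A list of 40 further genes of retinoid transport, metabolism and reception had 24 members tested with CD. As deposited 15 rose and 6 fell, beside 43.1% and 19.5% of all genes; set against the median gene 13 rose and 7 fell, beside 31.3% and 30.5%. Adh1, an alcohol dehydrogenase that can oxidise retinol, rose by 1.99 ± 0.07, and Fabp5, a fatty acid binding protein that also binds retinoic acid, by 1.47 ± 0.05 (limma adjusted p = 3.95e-05 and 3.61e-05). With Rxra OE 16 of 24 rose and 3 fell as deposited (68.6% and 14% of all genes), or 14 and 8 against the median gene (35.3% and 35.2%), among them Fabp5 (2.09 ± 0.07), which rose. With shE3 1 of 24 rose and 7 fell as deposited (4.85% and 12.3% of all genes), or 5 and 7 against the median gene (16.2% and 12.9%); the falls were led by Lrp2, an endocytic receptor that takes up retinol carriers (-1.21 ± 0.16, limma adjusted p = 0.000452), Adh1 (-0.90 ± 0.12) and Fabp5 (-0.48 ± 0.10). The list's median difference was 0.38 with CD and 0.31 with Rxra OE relative to the median gene, and -0.09 with shE3.

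Of 12 genes known to respond to retinoic acid, 8 were tested with CD, and 1 rose and 4 fell, both as deposited and against the median gene, beside the shares of all genes given above. Rarb and Stra6 are on both lists. Tgm2, a transglutaminase, fell from 62.0 and 66.1 TPM to 26.0 and 26.5 (-1.45 ± 0.04, limma adjusted p = 2.82e-05), and Meis2, a homeobox gene, fell by 1.22 ± 0.06. Rarb fell from 47.8 and 51.8 TPM to 29.1 and 28.8 with CD (-0.96 ± 0.04) and from 34.3 and 36.7 to 13.6 and 12.8 with Rxra OE (-2.06 ± 0.06), opposite in direction to Cyp26a1 in both tables. Its difference with shE3 was 0.15 ± 0.09 as deposited (limma adjusted p = 0.306) and a rise of 0.22 ± 0.04 against the median gene (adjusted p = 0.0122). With Rxra OE 10 of the list were tested, and 4 rose and 4 fell as deposited, beside 68.6% and 14% of all genes. Against the median gene it was 3 and 6, beside 35.3% and 35.2%. Cdx1, a homeobox gene, rose by 3.15 ± 0.09. With shE3 0 of 9 rose and 1 fell as deposited, beside 4.85% and 12.3% of all genes. The fall was that of Rarres1 (-0.97 ± 0.14, limma adjusted p = 0.000643).

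Markers of other cell types moved in the same comparisons. The 6 markers of extraembryonic endoderm (XEN-like: Gata4, Gata6, Sox17, Foxa2, Sall4 and Cubn) all rose with CD and with Rxra OE and all fell with shE3, the directions in which Cyp26a1 moved. Their summed level was 497 to 519 TPM with CD against 101 to 124 with DMSO, 560.1 to 619 with Rxra OE against 60.0 to 72.9 in CTR, and 63.8 to 68.3 with shE3 against 202 to 224 in shCTR. The 5 epithelial markers did the same (581 to 621 against 153 to 165 TPM, 549 to 563 against 74.4 to 84.7, and 61.3 to 64.3 against 191 to 216). The 7 fibroblast markers summed to 797 to 824 TPM with CD against 1235 to 1296, and to 524 to 527 with Rxra OE against 1231 to 1369; all 7 fell with CD, and 6 fell and 1 rose with Rxra OE. With shE3 they summed to 2414 to 2446 TPM against 2536 to 2815 and 1 fell, while macrophage markers stood at 349.7 to 353 TPM against 137 to 165. Muscle markers summed to 17.4 to 19.6 TPM with Rxra OE against 2.74 to 2.76, to 5.50 to 5.97 with CD against 2.70 to 3.29, and to 10.99 to 12.59 with shE3 against 9.79 to 12.60. Neural and neural crest markers summed to 30.4 to 35.8 TPM with Rxra OE against 13.3 to 15.5, to 6.42 to 7.19 with CD against 6.19 to 6.80, and to 35.0 to 37.1 with shE3 against 25.9 to 28.5. Endothelial markers stood at 14.7 to 15.4 TPM with Rxra OE against 5.79 to 6.01, at 4.85 to 5.22 with CD against 10.7 to 11.2, and at 36.4 to 40.2 with shE3 against 45.2 to 50.3. Macrophage markers stood at 8.85 to 9.10 TPM with CD against 5.86 to 6.55 and at 9.90 to 10.2 with Rxra OE against 12.1 to 13.7. Of all genes, as deposited, 43.1% rose and 19.5% fell with CD, and 4.85% and 12.3% with shE3. With Rxra OE, where 68.6% of all genes rose and 14% fell, all 3 muscle markers tested rose as deposited. There 2 of 3 neural and 2 of 3 endothelial markers rose, and 1 neural and 1 endothelial marker fell. Of these lists, the markers at 0 in both libraries were Myog in all 6 groups, Sox10 in DMSO and Rxra OE, and Ptprc in Rxra OE. The part of these cell types in the results was not tested, and in bulk RNA a smaller number of cells of a type and less RNA per cell cannot be told apart.

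The comparison of CD with DMSO could be read again at 0 h of the actinomycin D series, in other libraries. The 2 libraries of each arm stood apart from each other at 0 h: XEN-like markers summed to 1419 in one CD library and 2719 RPM in the other, and to 401 and 796 with DMSO. Fibroblast markers summed to 3779.8 to 3872 RPM with CD and 4761 to 5195 with DMSO; the part of these markers in the differences was not tested. Cyp26a1 stood at 1248 and 1339 RPM with CD against 528 and 449 with DMSO, and Lrat at 1.07 and 0.431 against 10.1 and 5.80. Crabp1 stood at 997 and 1422 against 2425 and 1746, and Crabp2 at 29.1 and 48.5 against 79.0 and 57.1. The arms did not overlap for any of these 4 genes. Of 10 members tested, 1 rose and 3 fell as deposited, where 8.22% of 17064 genes rose and 6.41% fell. The median gene was higher by 0.19, and relative to it 1 rose and 4 fell, where 7.1% rose and 8.82% fell.

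Cyp26a1 rose by 1.27 ± 0.12 relative to the median gene at 0 h (limma adjusted p = 0.00125). Lrat fell by 2.29 ± 0.35 (limma adjusted p = 0.00442), Crabp1 by 0.93 ± 0.22 (adjusted p = 0.0248), Crabp2 by 0.95 ± 0.23 (adjusted p = 0.0271) and Aldh1a2 by 0.69 ± 0.21 (adjusted p = 0.047, and 0.0697 as deposited). As deposited, Crabp1 and Crabp2 were each lost without CD 0 h replicate 1 (-0.53, adjusted p = 0.135, and -0.46, adjusted p = 0.251) and without either DMSO 0 h library (adjusted p of 0.0523 to 0.108). When libraries were scaled to the ERCC spike-ins, RNAs added in fixed amount, Cyp26a1 alone passed, and Lrat (-2.22, adjusted p = 0.0543), Crabp1 (-0.57, adjusted p = 0.105) and Crabp2 (-0.61, adjusted p = 0.118) did not. Dhrs3, which fell in the CD table, stood at 276 and 154 RPM against 202 and 108, overlapping values with no difference past the threshold (0.34 ± 0.30, adjusted p = 0.426). Cyp26b1 also overlapped, at 895 and 1054 against 1069 and 944 (-0.19 ± 0.14, adjusted p = 0.36). Of the 27 further retinoid genes tested, 4 rose and 1 fell as deposited, beside 8.22% and 6.41% of all genes. Against the median gene it was 5 and 2, beside 7.1% and 8.82%. Among them Cyp26c1 (1.17 ± 0.19, limma adjusted p = 0.00517), Lrp2 (0.58 ± 0.12) and Adh1 (0.55 ± 0.12) all rose. Of the response list 10 were tested, and 1 rose and 1 fell, beside the same shares of all genes. The fall was that of Tgm2 (-0.91 ± 0.13).

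Cyp26a1 was the only one of the 10 genes that fell in both arms under actinomycin D, as deposited, against the median gene and per ERCC. It went from 528 and 449 RPM through 367 and 379 at 4 h to 157 and 178 at 8 h with DMSO, and from 1248 and 1339 through 984 and 968 to 553 and 530.0 with CD. The 3 times did not overlap in either arm. At 8 h 34.2% of its 0 h level remained with DMSO and 41.8% with CD, or 28.1% and 32.7% per ERCC read. Relative to the median gene, which was lower by 0.33 and 0.34, its fall over 8 h was -1.13 ± 0.12 with DMSO (limma adjusted p = 0.00141) and -0.91 ± 0.12 with CD (adjusted p = 0.0016).

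With DMSO 2 of 10 members rose over 8 h and 1 fell as deposited, beside 3.73% and 27.2% of genes, or 4 and 1 relative to the median gene, beside 16.5% and 13.3%. With CD 4 rose and 2 fell, beside 13.2% and 41.3%, or 5 and 2, beside 23.9% and 30.1%. A rise as deposited or against the median gene is a larger share of the remaining reads. When libraries were scaled to ERCC, 1 member rose in each arm. These were Lrat with DMSO, at 383% of its 0 h level per ERCC read, and Aldh1a1 with CD, at 293%. Both 8 h comparisons use the 0 h libraries described above. Crabp2 rose in both arms (1.07 ± 0.23 and 1.22 ± 0.23, limma adjusted p = 0.0115 and 0.00358), as did Crabp1 (0.94 ± 0.22 and 1.02 ± 0.22, adjusted p = 0.015 and 0.00489) and Aldh1a2 (0.90 ± 0.21 and 0.80 ± 0.21, adjusted p = 0.0133 and 0.00877). As deposited, Crabp1 with DMSO (adjusted p = 0.0602) and Aldh1a2 in either arm (0.0753 and 0.0583) did not pass. Scaled to ERCC, Crabp2 passed in neither arm (0.40, adjusted p = 0.173, and 0.55, adjusted p = 0.0557), nor did Crabp1 with CD (0.34, adjusted p = 0.133). As deposited, the Crabp2 call with DMSO (0.67, adjusted p = 0.046) was lost without any one of the DMSO 0 h and 8 h libraries (adjusted p of 0.0611 to 0.233). With CD, Crabp2 was lost without CD 0 h replicate 1 (0.53, adjusted p = 0.0715) or CD 8 h replicate 1 (0.84, adjusted p = 0.0523). Crabp1 was lost without CD 0 h replicate 1 (0.42, adjusted p = 0.079) or either CD 8 h library (0.0845 and 0.0522).

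Lrat went from 10.1 and 5.80 RPM through 13.0 and 13.4 at 4 h to 21.7 and 53.2 at 8 h with DMSO. With CD it went from 1.07 and 0.431 through 1.69 and 0.647 to 2.78 and 2.91, all far below the DMSO libraries. Between 8 and 819 reads per library stand behind these values. Its rise relative to the median gene was 2.39 ± 0.35 with DMSO (limma adjusted p = 0.00346) and 1.30 ± 0.35 with CD (adjusted p = 0.0109). The size of the DMSO rise rests on the 8 h libraries, which differ: as deposited it was 2.01, and it was 1.39 without DMSO 8 h replicate 2 and 2.64 without replicate 1 (limma adjusted p = 0.00874, 0.0199 and 0.0227). It did not pass with no filter on low values (adjusted p = 0.104). The CD call was lost as deposited without any one of the CD 0 h and 8 h libraries (adjusted p of 0.0545 to 0.146) and under ERCC scaling (0.95, adjusted p = 0.125).

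Dhrs3 stood at 70.6 and 61.6 RPM at 4 h of CD and 71.6 and 70.3 at 8 h, after 276 and 154 at 0 h. It fell by 1.18 ± 0.30 relative to the median gene over 8 h (limma adjusted p = 0.00894), and as deposited this call was lost without CD 0 h replicate 1 (-1.10, adjusted p = 0.0555). With DMSO it stood at 72.2 and 76.0 at 4 h and at 68.3 and 134 at 8 h and did not pass (-0.21 ± 0.30, adjusted p = 0.604). Aldh1a1 rose with CD, from 1.65 and 2.53 to 6.21 and 8.89 RPM (1.69 ± 0.30, limma adjusted p = 0.00294), and did not pass with DMSO, at 7.38 and 5.66 after 3.69 and 5.93 (0.74 ± 0.30, adjusted p = 0.08). By limma Cyp26b1, Rdh10 and Aldh1a3 passed in neither arm, either as deposited or against the median gene, and the direction of each turned with the scaling in at least one arm; per ERCC Cyp26b1 fell with DMSO (-0.50 ± 0.15, adjusted p = 0.0485). On recovered reads over 8 h of CD, Cyp26b1 rose by edgeR (0.45, adjusted p = 0.0313) and DESeq2 (0.39, adjusted p = 0.0145), and Rdh10 by edgeR (0.36, adjusted p = 0.0383) but not by DESeq2 (0.30, adjusted p = 0.0907). The difference between the arms was tested directly: 0 of 10 members differed in their 8 h change, and 1, Aldh1a1, had an unadjusted p under 0.05 (1.07 ± 0.39, limma adjusted p = 0.398). Over all 17064 genes limma called 1 (0.00586%), and 1939 had an unadjusted p under 0.05; edgeR and DESeq2 on recovered reads called 1 and 53 genes and 0 members. The difference was 0.29 ± 0.18 (SE, limma adjusted p = 0.515) for Cyp26a1 and -0.91 ± 0.50 (adjusted p = 0.486) for Dhrs3.

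**Figure D4:**
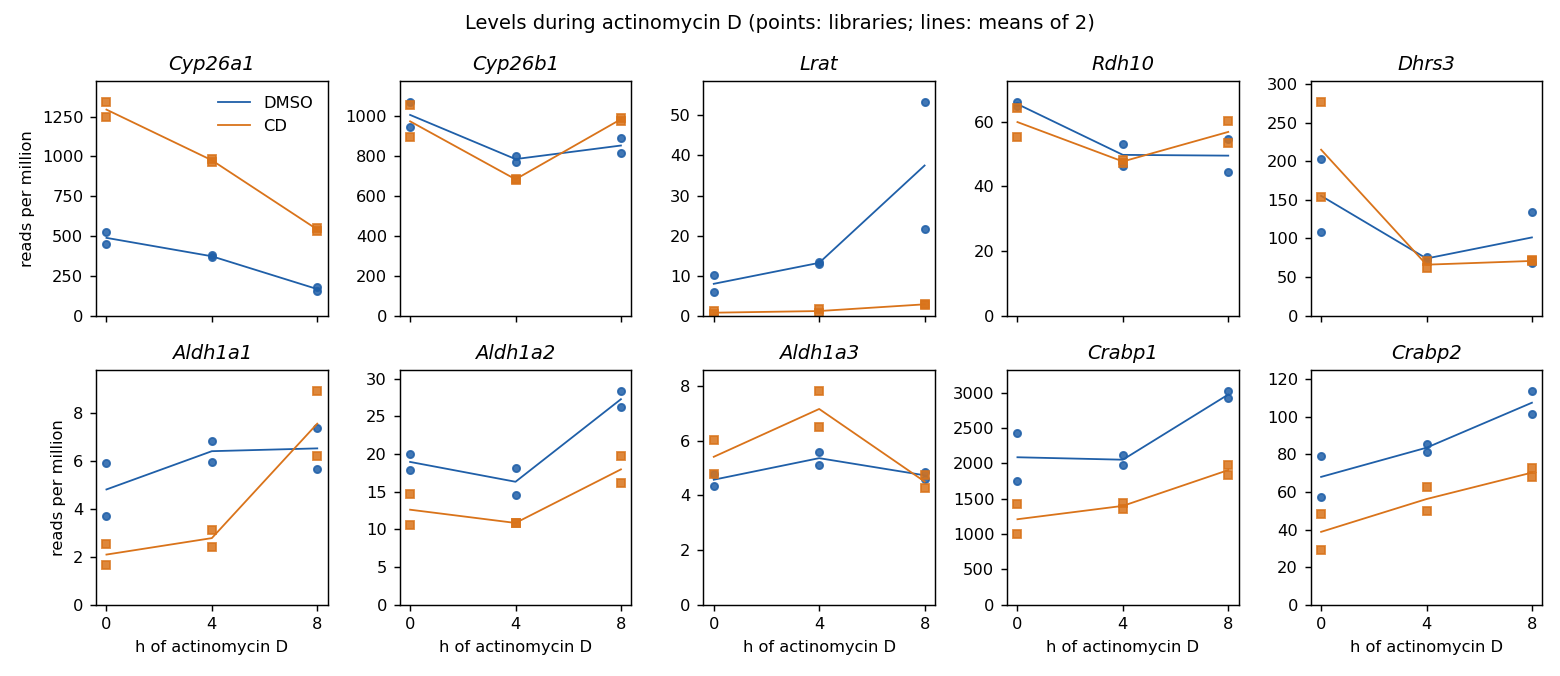
RPM of the 10 genes at 0, 4 and 8 h of actinomycin D, 1 panel per gene with its own axis from 0; points are libraries (DMSO blue circles, CD orange squares) and lines join means of 2. Cyp26a1 declines in both arms, from 1248 and 1339 to 553 and 530.0 with CD, Lrat with DMSO ends at 21.7 and 53.2, and the 0 h libraries of Dhrs3 lie far apart.

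The last table compares embryonic fibroblasts with pluripotent cells, and it was normalized apart from the others. Pluripotency markers (Pou5f1, Nanog, Zfp42, Esrrb, Dppa5a and Sox2) summed to 4959 to 5927 TPM in the iPSC and R1 libraries and to 0.491 to 0.700 TPM in MEF, where Pou5f1, Zfp42, Esrrb and Dppa5a were listed at 0. Fibroblast markers summed to 16331 to 17095 TPM in MEF and to at most 232 elsewhere. Macrophage markers summed to 977 to 1167 TPM in MEF and to at most 86.4 elsewhere. Crabp1 led in every group, with 1096 and 1266 TPM in MEF, 43.4 and 26.3 in CD iPSC, 12.6 and 12.1 in DMSO iPSC and 19.0 and 19.2 in R1, and no group overlapped another. Crabp2 stood at 20.3 and 25.5 TPM in MEF, 5.60 and 3.58 in CD iPSC, 3.79 and 7.67 in DMSO iPSC and 1.64 and 2.1 in R1; the iPSC groups overlapped. Cyp26b1 stood at 22.4 and 18.4 TPM in MEF and at most at 0.246 elsewhere. Cyp26a1 was listed at 0 and 0.355 TPM in MEF and 0.325 and 0 in DMSO iPSC, which overlapped, at 1.35 and 1.28 in CD iPSC and at 0.607 and 2.08 in R1, with overlap between R1 and CD iPSC. Lrat was listed at 0 in all MEF and iPSC libraries and at 0.0615 and 0.120 TPM in R1, and was not tested.

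Between iPSC (the mean of both groups) and MEF, 0 of 9 members tested rose and 8 fell, beside 34.9% and 37.1% of 17414 genes; the median gene was higher by 0.01, and in R1 against MEF by 0.11 and in iPSC against R1 lower by 0.12, shifts that changed no call of a member. The falls ranged from Crabp1 (-5.77 ± 0.18, limma adjusted p = 3.59e-07) and Cyp26b1 (-4.30 ± 0.17, adjusted p = 8.54e-07) to Aldh1a2 (-0.83 ± 0.24, adjusted p = 0.0173). Dhrs3 (-2.09 ± 0.31), Crabp2 (-2.0 ± 0.28) and Rdh10 (-1.96 ± 0.17) lay between. R1 against MEF, which shares the MEF libraries, had 1 rise and 8 falls of 9, beside 36.2% and 32.9%; Crabp1 was again furthest (-5.87 ± 0.21, limma adjusted p = 7.65e-07), and the rise was Cyp26a1 (0.93 ± 0.33, adjusted p = 0.0387). Without MEF replicate 1 only 6 members could be tested and 4 were called in each of these comparisons, since Cyp26b1, Aldh1a1 and Aldh1a3 reached 1 TPM in MEF alone. Aldh1a2 against MEF then did not pass (-0.50, adjusted p = 0.175, for iPSC, and -0.66, adjusted p = 0.114, for R1), nor did it for R1 without R1 replicate 1 (-0.79, adjusted p = 0.0895). The rise of Cyp26a1 in R1 was lost without either MEF library or without R1 replicate 2 (0.47, adjusted p = 0.204) and with a pseudocount of 0.1 (2.54, adjusted p = 0.0605).

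CD iPSC and DMSO iPSC differed in 2 of 9 members, both higher in CD iPSC, beside 20% of genes higher and 18.5% lower. Crabp1 was higher by 1.39 ± 0.21 (limma adjusted p = 0.0029). Cyp26a1 was higher by 1.01 ± 0.33 (limma adjusted p = 0.0493), from levels near 1 TPM, and this call was lost without any one of the 4 iPSC libraries (0.80 to 1.21, adjusted p of 0.0847 to 0.213) and with a pseudocount of 0.1 (2.78, adjusted p = 0.073). Dhrs3 stood at 4.99 and 3.91 TPM in CD iPSC and at 0.863 and 2.87 in DMSO iPSC and did not pass (1.01 ± 0.36, adjusted p = 0.0611). Fibroblast markers summed to 86.9 to 98.4 TPM in CD iPSC and 230.3 to 232 in DMSO iPSC. XEN-like markers summed to 52.7 to 53.7 against 107 to 109. R1 stem cells stood at 78.0 to 79.0, between the iPSC groups, so this sum alone does not count XEN-like cells. Neural and neural crest markers summed to 23.0 to 23.5 against 58.8 to 68.1, with 26.5 to 32.8 in R1. For macrophage markers it was 51.1 to 55.7 against 78.9 to 86.4, for endothelial 80.0 to 85.3 against 38.8 to 40.5. For epithelial markers it was 271 to 305 against 212 to 217, for muscle 10.0 to 15.6 against 4.55 to 4.64. Cdh5 (endothelial) was at 0 in both iPSC groups and in R1, and Kdr in CD iPSC. Myod1 (muscle) was at 0 in both iPSC groups and in R1, and Myog and Tnnt3 in CD iPSC and R1. In R1 endothelial markers summed to 77.4 to 77.6 TPM, muscle to 13.1 to 13.8 and epithelial to 249 to 257. Macrophage markers summed to 38.1 to 43.1 there and fibroblast markers to 78.1 to 85.9. The part of these markers in the differences between the iPSC groups was not tested. Between iPSC and R1 1 of 9 rose and 0 fell, beside 3.5% and 10.2%: Crabp2 was higher in iPSC by 1.06 ± 0.28 (limma adjusted p = 0.0478), a call lost without either R1 library (0.94, adjusted p = 0.227, and 1.17, adjusted p = 0.171), CD iPSC replicate 1 (0.93, adjusted p = 0.0739) or DMSO iPSC replicate 2 (0.84, adjusted p = 0.0895). Of the 40 further retinoid genes, 25 were tested in this table. In CD iPSC 6 were higher and 3 lower than in DMSO iPSC, beside 20% and 18.5% of all genes. From MEF to iPSC 5 rose and 13 fell, beside 34.9% and 37.1%.

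**Figure D5:**
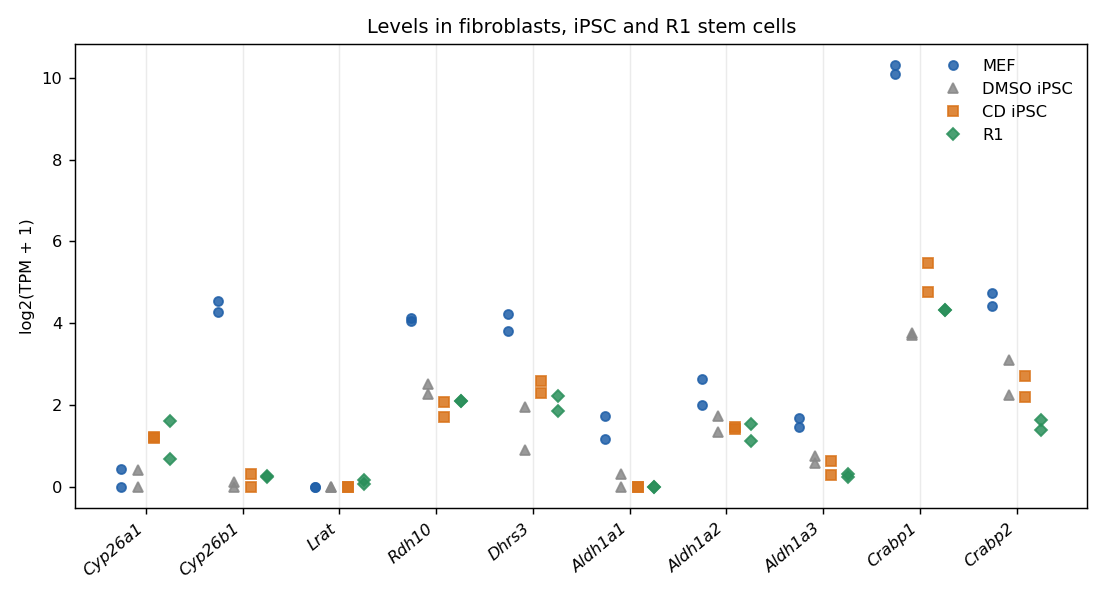
Levels of the 10 genes as log2(TPM + 1) in MEF, DMSO iPSC, CD iPSC and R1 libraries, 2 points per group. Crabp1 and Cyp26b1 separate MEF (1096 and 1266, and 22.4 and 18.4 TPM) from the other groups, and Lrat is at 0 in MEF and iPSC.

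Across all 16 groups, with each gene centred on its own table, the members fell into different patterns. Cyp26b1 and Crabp1 followed each other most closely (Pearson r = 0.95 over 16 group means), and Cyp26b1 and Rdh10 had r = 0.90. Cyp26a1 ran opposite to Aldh1a2 (r = -0.83) and Lrat (r = -0.76), and its correlation with Cyp26b1 was -0.24. These are descriptions of 16 points that share tables and treatments. Cyp26b1 differed far more between MEF (22.4 and 18.4 TPM) and the iPSC and R1 groups (at most 0.246) than within any other table. All r values here and below include that table, and its part in them was not tested. With Rxra OE Rdh10 was higher (25.9 and 24.8 TPM against 15.1 and 16.9). Cyp26b1 was lower there (95.0 and 95.8 against 144 and 158). Cyp26b1 and Crabp1 were both lower with CD and with Rxra OE. Among 7712 genes with a group mean of at least 5 in each table, the patterns most like that of Cyp26a1 were those of Stx3 and Racgap1 (r = 0.98 each). Those most like Crabp1 were Tmem200b and Tgfbr3 (0.99 each), and those most like Cyp26b1 were Pde8b and Abhd5 (0.99 each). For Crabp2 they were Gm7665 (0.99) and Atp6v0c (0.96), for Rdh10 Hist1h1c and Kif3a (0.98 each), for Dhrs3 Anxa7 and Tbc1d20 (0.97 each), for Aldh1a2 Cpxm1 (0.96) and Fez1 (0.95), and for Aldh1a3 Rex1bd (0.90) and Crip1 (0.89).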

How the data were processed

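Expression tables of 32 libraries in 16 groups of 2 were used as deposited. The submitters' processing notes name fastp 0.20.1, HISAT2 2.1.0, StringTie 2.0 and mm10, with no settings. TPM were computed by the authors in 4 tables, whose depth is unknown. The actinomycin D table names no unit, and its deposited signal was checked to be RPM: dividing by the smallest step of a library gave whole reads, within 0.001, for 99.996 to 100% of values, at a depth of 15382821 to 24186485 reads. On those reads the count tests of edgeR and DESeq2 called 2961 and 4137 genes at 0 h, where limma called 2495.

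Genes were named from GENCODE M21 (55141 of 55401 matched). Each table was fitted by itself with limma 3.58.1 (R 4.3.3) after log2(value + 1), using the mean-variance trend and 2-sided tests; the minimum of 1 in 2 libraries was applied first, and p-values were adjusted over all genes left. edgeR 4.0.16 and DESeq2 1.42.0 served as alternatives, beside a pseudocount of 0.1, no filter, median ratio and ERCC scaling, removal of mitochondrial genes, a replicate block and leaving out each library. Promoter windows are RefSeq's. Figures used Python 3.11.15 and matplotlib 3.10.9. The tests were also run on simulated data with planted shifts and independent noise. Those data held no shift of the median gene and no 0 h libraries that stood apart, so they cannot check calls that depend on these. The members, gene lists and marker lists were chosen with earlier results of these data known. Genes named in the report are the 10 members, Rxra, Exosc3, the genes of each further list with the smallest adjusted p as deposited (up to 3 in the CD, Rxra OE, shE3 and 0 h comparisons), and the 2 genes most like each member. Values of Rarb with shE3 were added after they were seen. Some genes that this rule selects are not reported here.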

Additional observations from a re-analysis of the deposited data

How the results depend on the processing

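Each group holds 2 libraries, and low genes (Lrat, Aldh1a1, Aldh1a3, and Cyp26a1 in pluripotent cells) lie near the minimum level for a test. Counts here are of members called as deposited, and the cause of a change was not tested unless fewer genes or libraries were tested. With no filter 0 members were called with shE3 (2 with the filter), 1 at 0 h (4), 1 over 8 h of DMSO (3), 2 over 8 h of CD (6) and 1 between the iPSC groups (2). Median ratio scaling gave 5 with shE3 and 5 over 8 h of DMSO, where edgeR and DESeq2 also gave 5 each; these gave 6 each at 0 h, and 9 and 8 over 8 h of CD. ERCC scaling gave 1 at 0 h and 3 over 8 h of CD, and a pseudocount of 0.1 gave 1 between the iPSC groups. Removing mitochondrial genes gave 9 with CD (8 with them). It left the counts with Rxra OE (10), with shE3 (2) and in the iPSC table unchanged. Only 6 members could be tested with CD without either DMSO library, and 8 with Rxra OE without either CTR library. Leaving out 1 library gave 5 to 7 with CD (8 with all), 1 to 3 with shE3, 2 to 6 at 0 h, 2 to 4 over 8 h of DMSO, 2 to 6 over 8 h of CD, 1 to 2 between the iPSC groups, 4 to 8 for iPSC against MEF (8), 0 to 1 for iPSC against R1 (1) and 4 to 8 for R1 against MEF (9).

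The labels link same-numbered libraries by their number only, and 2 pairs are too few to tell whether it pairs them. Deviations of same-numbered libraries correlated at -0.11 in the CD, -0.14 in the Rxra OE and 0.08 in the shE3 table, from -0.69 to 0.54 in the actinomycin D table (0.54 for CD and DMSO at 0 h) and from -0.13 to 0.06 in the iPSC table. With the replicate block 8 members were called with CD, 9 with Rxra OE, 2 with shE3, 3 at 0 h, 2 and 6 over 8 h of DMSO and CD, 1 between the iPSC groups, 0 for iPSC against R1, 8 for iPSC against MEF and 9 for R1 against MEF. A crossed pairing, chosen after seeing the data, gave 8 with CD and 10 with Rxra OE.

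Directions turned for Rdh10 with Rxra OE (-0.077) and Dhrs3 with shE3 (0.067) under median ratio scaling, and at 0 h under ERCC scaling for Rdh10 (0.089) and Cyp26b1 (0.17). Over 8 h of DMSO they turned for Aldh1a3 under ERCC scaling (-0.18), for Rdh10 under median ratio scaling (0.00030) and DESeq2 (0.017), and for Cyp26b1 under median ratio scaling (0.17), edgeR (0.15) and DESeq2 (0.19). Over 8 h of CD they turned under median ratio scaling, edgeR and DESeq2 for Aldh1a3 (0.071, 0.17 and 0.11) and Rdh10 (0.27, 0.36 and 0.30), and under ERCC scaling for Cyp26b1 (-0.32). The difference between arms turned for Aldh1a2 under edgeR (0.015). Of these, only Rdh10 with Rxra OE had passed as deposited.

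Leaving out 1 library turned directions of these members, with the range over libraries in brackets: with shE3, Lrat (-0.18 to 0.022) and Dhrs3 (-0.025 to 0.023); at 0 h, Cyp26b1 (-0.17 to 0.069); over 8 h of DMSO, Aldh1a3 (-0.014 to 0.098). It also did so over 8 h of CD, Rdh10 (-0.18 to 0.034) and Cyp26b1 (-0.098 to 0.14); for the difference between arms, Crabp2 (-0.14 to 0.57), Aldh1a2 (-0.24 to 0.21) and Crabp1 (-0.11 to 0.40); between the iPSC groups, Crabp2 (-0.66 to 0.20), Aldh1a2 (-0.30 to 0.090) and Cyp26b1 (-0.066 to 0.25); for iPSC against R1, Aldh1a2 (-0.039 to 0.37), Cyp26a1 (-0.92 to 0.023), Rdh10 (-0.047 to 0.14), Crabp1 (-0.075 to 0.27) and Dhrs3 (-0.38 to 0.15). None of these had passed with all libraries. Over all genes, no filter called 26 with shE3 (2695 with the filter), 652 at 0 h (2495), 671 over 8 h of DMSO (5282), 3412 over 8 h of CD (9290), 113 for the difference between arms (1) and 898 for iPSC against R1 (2391). Median ratio scaling called 4574 with shE3; ERCC scaling 288 at 0 h, 3056 over 8 h of DMSO and 0 for the difference between arms; DESeq2 4137 at 0 h and 53 for that difference; a pseudocount of 0.1 called 3 for it; and the block 1508 for iPSC against R1. Leaving out 1 library gave 1700 to 3079 with shE3, 234 to 6114 at 0 h, 305 to 6567 over 8 h of DMSO, 4663 to 9839 over 8 h of CD, 1 to 346 for the difference between arms, 3981 to 6491 between the iPSC groups and 159 to 2939 for iPSC against R1. Scaling to the median gene moved calls with CD from 5612 higher and 2534 lower to 4067 and 3964, and with Rxra OE from 9123 and 1862 to 4696 and 4687. It moved them with shE3 from 761 and 1934 to 2548 and 2026, at 0 h from 1402 and 1093 to 1212 and 1505, over 8 h of DMSO from 637 and 4645 to 2814 and 2276, over 8 h of CD from 2245 and 7045 to 4076 and 5139, and for iPSC against R1 from 610 and 1781 to 803 and 809.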
